A study of Mus musculus with 16 samples.

Results

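The proteasome is the barrel-shaped protease that degrades proteins tagged with ubiquitin. The genes described here encode its constitutive subunits, together with its activators, its inhibitor and the assembly chaperones that carry the same kind of gene symbol. Members were every gene whose symbol is Psm, one letter from a to f and a number, and whose array row names that 1 gene only. The inducible subunits Psmb8, Psmb9 and Psmb10 were left out by rule. This gave 39 of the 30142 genes with such a row, each through 1 row, and 38 of the 18418 genes that were tested. Psmb5 and Psme2 fall outside because their rows name several genes, and no value is given for them.

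The 39 genes cover 7 subunits of the outer (alpha) rings of the core particle, Psma1 to Psma7, and 6 of its inner (beta) rings, Psmb1 to Psmb4, Psmb6 and Psmb7. The regulatory particle is represented by 17 genes, which are 6 ATPases, Psmc1 to Psmc6, 3 other subunits of its base, Psmd1, Psmd2 and Psmd4, and 8 subunits of its lid, Psmd3, Psmd6, Psmd7, Psmd8, Psmd11, Psmd12, Psmd13 and Psmd14. The other 9 are the base chaperones Psmd5, Psmd9 and Psmd10, the activator genes Psme1, Psme3 and Psme4, the inhibitor gene Psmf1, and the tissue-restricted core subunits Psma8 and Psmb11.

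In the assembled particle the alpha rings gate the entrance of the barrel and the beta rings carry the proteolytic sites, which are those of Psmb5, Psmb6 and Psmb7. The regulatory particle binds ubiquitin chains, the lid subunit Psmd14 removes them, and the ring of ATPases unfolds the protein and feeds it into the core. Transcription of the subunit genes is known to rise together when proteasome capacity falls short, through the transcription factor Nfe2l1. In heart muscle the system turns over sarcomere proteins, with muscle ubiquitin ligases such as Fbxo32 and Trim63 choosing the substrates.

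The samples were atria of male wild-type C57BL/6 mice, 10 weeks old, with 4 single-colour arrays of total RNA in each of 4 groups. Arrays 1 to 4 came from sham mice, and arrays 11 to 14, 31 to 34 and 71 to 74 from mice 1, 3 and 7 days after myocardial infarction, induced through a ligature on the left coronary artery's anterior descending branch. That artery mainly supplies the left ventricle, so the atria are not the chamber ligated. The labels do not state when after surgery sham tissue was taken, nor whether an array holds 1 mouse or a pool, so p-values measure the spread between these samples only. In whole tissue a lower signal from fewer cells of a type cannot be told apart from less RNA per cell.

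Signals are log2 values, and every difference below is a log2 difference of the deposited signal, with the SE of a model fitted to all tested genes and a Benjamini-Hochberg adjusted p over all of them. Genes whose adjusted p was under 0.05 are described as called. The median of the negative control rows, 4.44 to 4.93 by array, served as the background level. All 13 measured cardiomyocyte markers, among them the atrial genes Myl7, Sln and Nppa, lay above it in every group, and all 7 lymphocyte markers lay at or below it. The mean of the cardiomyocyte markers was 16.39 to 16.59 on the sham arrays, 14.70 to 15.47 on day 1, 13.54 to 15.85 on day 3 and 15.60 to 16.18 on day 7. Of the cardiomyocyte markers 4, 7 and 0 of 13 were called lower on days 1, 3 and 7, with a median of −0.58 on day 7, and 8, 9 and 6 of 13 were called lower once arrays 31 and 13, described next, were left out. Of the neutrophil markers 8, 8 and 0 of 9 tested were called higher (8, 8 and 2 without those arrays), and of the macrophage markers 8, 12 and 12 of 12 (9, 12 and 12). Of the 9 fibroblast markers 0, 4 and 8 were called higher and 4, 0 and 0 lower, or 2, 5 and 9 higher and 4, 0 and 0 lower without those arrays. The mean of 10 neutrophil markers was 4.56 to 4.82 in sham, where 4 of the 10 were not above background, and 8.80 to 9.99 on day 1, that of 12 macrophage markers 7.76 to 8.02 in sham and 10.44 to 11.84 on day 7, and that of the fibroblast markers 10.04 to 10.32 in sham and 13.51 to 14.18 on day 7. The part of these shifts in the results below was not tested.

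Day 3 array 31 and day 1 array 13 stood apart, with the poorest separation of positive from negative control rows, 0.743 and 0.755 against 0.793 to 0.825 on the other 14 arrays. Array 31 had the lowest signal of its group for 37 of the 38 tested proteasome genes, and array 13 for 30 of 38. The cardiomyocyte marker mean was 13.54 on array 31 against 15.65 to 15.85 on the other day 3 arrays. Its neutrophil marker mean was 9.28 against 6.08 to 6.20, within the day 1 range of 8.80 to 9.99. Its macrophage and fibroblast marker means, 10.08 and 10.61, lay near the day 1 ranges of 10.12 to 10.37 and 9.38 to 10.45. The other day 3 arrays had 11.40 to 11.80 and 12.39 to 12.59. The cardiomyocyte mean was below the day 1 range of 14.70 to 15.47. Mki67, a cell division gene, read 8.89, against 5.47 to 5.63 on day 1 and 11.77 to 12.30 on the other day 3 arrays. The day label of array 31 was not tested. Arrays 31 and 13 were both kept, with array 31 in the day 3 group, and the counts of proteasome genes called without them are given too.

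With all 16 arrays, most proteasome genes did not pass the test against sham on any day. On day 1 after infarction 9 of the 38 tested genes were called higher and 3 lower, together 31.6%, while 47.1% of all tested genes were called, 24.9% higher and 22.2% lower. On day 3 the counts were 7 higher and 1 lower, together 21.1% against 43.7% of all tested genes, 23.5% higher and 20.2% lower. On day 7 they were 1 higher and 3 lower, together 10.5% against 24.8%, with 14.9% of all tested genes higher and 9.92% lower. The share of proteasome genes called was below the background on each day with all 16 arrays and above it on each day once arrays 31 and 13 were left out, as given below. With all arrays, 23 of the 38 were called on no day. With 1 array left out, the day 3 count of higher calls was 15 without array 31 and 4 without sham array 2 or day 3 array 33 or 34. The day 1 count of lower calls was 1 without sham array 3 or day 1 array 13 or 14, and the day 7 count 1 without sham array 2 or 3 or day 7 array 73 or 74.

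As deposited, the core medians against sham were 0.11, 0.16 and −0.17 on days 1, 3 and 7, with 3, 3 and 2 of 13 genes called. Those of the regulatory particle were 0.27, 0.0425 and −0.24, with 6, 4 and 0 of 17 genes called. Over all tested genes the medians were 0.064, 0.082 and −0.0063, with 47.1%, 43.7% and 24.8% called. Within the particle the genes called higher lay in the core, the ATPase ring and the lid. The alpha subunits Psma3 and Psma5, the beta subunit Psmb3 and the lid subunits Psmd11, Psmd13 and Psmd14 were called higher on both day 1 and day 3. The ATPase genes Psmc4 and Psmc6 and the lid gene Psmd7 were added on day 1, and the lid gene Psmd8 on day 3. Of these 10 genes only Psma3 was called higher on day 7. Called lower were Psme1, Psmf1 and Psmd9 on day 1, Psme1 on day 3, and Psmb2, Psme3 and Psmd9 on day 7. Psmc4, Psmd7, Psmd8 and Psme1 lie outside the naming rule and are described because they were called.

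Groups that did not overlap at all gave a view that does not rest on the pooled spread. On day 1 all 4 arrays lay above all sham arrays for 14 of the 38 genes and below for 3, against 30.9% and 24.2% of all tested genes. On day 3 this was so for 4 and 4, against 22.3% and 20.5%, and on day 7 for 3 and 14, against 19.9% and 18.4%. The 14 lower on day 7 were Psma6, Psmb2, Psmb6, Psmb7, Psmc1, Psmc2, Psmc3, Psmc5, Psmd1, Psmd2, Psmd4, Psmd7, Psmd12 and Psme3, 9 of them in the regulatory particle. Between day 7 and day 1 the groups were apart for 2 genes higher and 20 lower, against 18.2% and 23.5%, and between day 7 and day 3 for 2 and 5, against 10.4% and 11.5%. Between day 3 and day 1 they were apart for 0 and 3, against 6.95% and 3.45%.

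**Figure D1:**
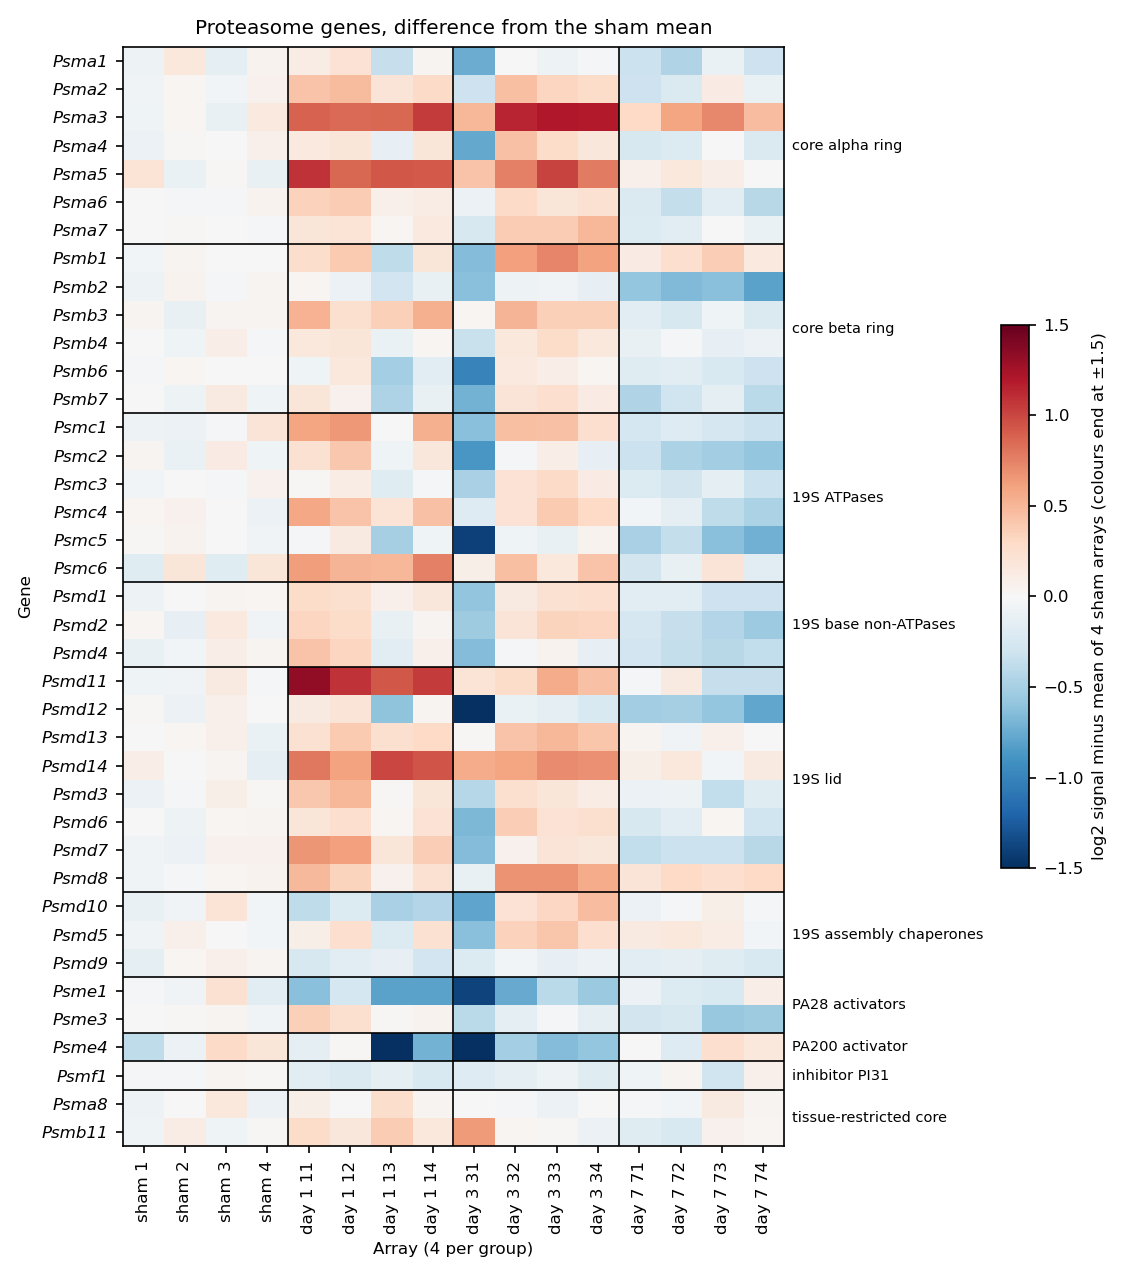
Log2 signal of the 39 proteasome genes (rows, grouped by part of the particle) on the 16 arrays (columns), as the difference from the mean of the 4 sham arrays. Psma3, Psma5, Psmd11 and Psmd14 stand out in red on the day 1 and day 3 arrays, and array 31 is blue for most genes. Psmb11 lies below background on all arrays and Psmd9 and Psma8 near it, so no size can be read in those rows.

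The same counts were taken with arrays 31 and 13 left out. On day 1, 20 genes were called higher and 4 lower, together 63.2% against 57.7% of all tested genes, 32.7% higher and 25.1% lower. On day 3, 22 were called higher and 2 lower, together 63.2% against 49.8%, 28.6% higher and 21.2% lower. On day 7, 3 were called higher and 16 lower, together 50% against 41.3%, 21.6% higher and 19.7% lower, although no day 7 or sham array was removed, so that the differences stayed and the pooled spread and the set of tested genes changed. The median SD of the 30 core and regulatory particle genes on day 3 was 0.348 with array 31 and 0.0705 without it.

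The scaling of the arrays also set how many genes were called. Quantile normalisation, which forces 1 distribution on all arrays, moved the median of all tested genes on day 1 from 0.064 to −0.15, and centring each array on its median moved it to −0.088. Quantile normalisation left 2 proteasome genes called higher on day 1, Psmd11 and Psmd14, and 1 on day 3, Psmd14, while centring left 4 and 3. Higher calls among all 18418 tested genes fell too, from 4594 on day 1 and 4330 on day 3 as deposited. They were 2617 and 2629 after quantile normalisation and 3173 and 2982 after centring. Relative to all tested genes, the median proteasome gene differed by 0.090 on day 1 as deposited and by −0.18 after quantile normalisation, so the direction of the family as a whole on day 1 rests on the scaling. The core changed direction in the same way, from 0.050 to −0.17. The regulatory particle kept its day 1 direction, at 0.21 as deposited and 0.065 after quantile normalisation, and so did its lid, at 0.22 and 0.16. These are medians over genes and were not tested. On day 7 the median proteasome gene differed by −0.17 as deposited and by −0.20 after quantile normalisation.

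In the core alpha rings, all 7 genes lay above sham on day 1 by the deposited values, with differences from 0.0029 to 0.95, but only Psma3 and Psma5 were called. Both were called on day 3 as well, where 6 of the 7 genes lay above sham. On day 7 Psma3 alone was called, and 5 of the 7 lay below sham. The shares of all tested genes called higher were 24.9%, 23.5% and 14.9% on days 1, 3 and 7. The median of the 7 genes on day 1 was 0.23 as deposited and −0.18 after quantile normalisation, which is 0.16 and −0.027 relative to all tested genes.

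Psma5, which encodes an alpha ring subunit, read 10.04, 9.74, 9.86 and 9.73 in sham, 10.92, 10.70, 10.78 and 10.76 on day 1, 10.27, 10.60, 10.85 and 10.62 on day 3, and 9.92, 10.00, 9.94 and 9.85 on day 7. All 8 arrays of days 1 and 3 lay above all 4 sham arrays, and the day 7 arrays lay among them. The difference from sham was 0.95 ± 0.12 (SE, adjusted p = 5.2e-05) on day 1 and 0.74 ± 0.12 (SE, adjusted p = 0.00029) on day 3, and 0.087 ± 0.12 (SE, adjusted p = 0.71) on day 7. Quantile normalisation lowered the day 1 and day 3 values to 0.49 and 0.46, with adjusted p of 0.065 and 0.094, and no other alternative ended these calls.

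Psma3, another alpha subunit, read 11.97, 12.08, 11.93 and 12.19 in sham, 12.93, 12.90, 12.90 and 13.09 on day 1, 12.54, 13.19, 13.24 and 13.23 on day 3, and 12.35, 12.64, 12.76 and 12.50 on day 7. Every infarction array was above every sham array, and array 31 was the lowest of day 3. The differences were 0.91 ± 0.15 (SE, adjusted p = 0.00040) on day 1, 1.01 ± 0.15 (SE, adjusted p = 0.00014) on day 3 and 0.52 ± 0.15 (SE, adjusted p = 0.024) on day 7. Quantile normalisation ended all of these calls, with values of 0.39, 0.47 and 0.46 and adjusted p of 0.27, 0.21 and 0.32. The day 7 call was also lost after centring (adjusted p = 0.13) and without sham array 1 or 3 or day 7 array 72 or 73, with adjusted p between 0.0579 and 0.0691.

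Psma1 and Psma4 were the alpha genes nearest to sham on day 1 and on day 3. Psma1 read 11.16, 11.40, 11.11 and 11.30 in sham, 11.35, 11.45, 10.89 and 11.28 on day 1, 10.49, 11.24, 11.17 and 11.23 on day 3, and 10.91, 10.79, 11.15 and 10.93 on day 7. Its groups overlapped on every day, and the day 1 difference was 0.0029 ± 0.17 (SE, adjusted p = 0.99). Psma4 read 11.39, 11.49, 11.48 and 11.55 in sham, 11.62, 11.66, 11.35 and 11.66 on day 1, 10.71, 11.91, 11.75 and 11.65 on day 3, and 11.23, 11.27, 11.48 and 11.26 on day 7, with a day 3 difference of 0.028 (adjusted p = 0.92). Without array 31 the day 3 arrays of Psma4 lay between 11.65 and 11.91, above all sham arrays, and without arrays 31 and 13 Psma4 was called higher by 0.29 (adjusted p = 0.014).

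The beta rings held both directions. Of 6 genes, 1 was called higher on days 1 and 3, Psmb3, and 1 lower on day 7, Psmb2. The shares of all tested genes were 24.9% higher on day 1, 23.5% higher on day 3 and 9.92% lower on day 7. The catalytic genes measured here, Psmb6 and Psmb7, were called on no day.

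Psmb2, a beta subunit without a proteolytic site, fell on day 7. It read 7.78, 7.91, 7.85 and 7.91 in sham, 7.89, 7.77, 7.57 and 7.75 on day 1, 7.23, 7.78, 7.81 and 7.73 on day 3, and 7.28, 7.20, 7.23 and 7.05 on day 7. The 4 day 7 arrays lay below every sham and day 1 array, and array 31 was as low as they were. The day 7 difference was −0.67 ± 0.12 (SE, adjusted p = 0.0011), and it was called under all 18 alternatives, from −0.74 to −0.62. Its day 1 and day 3 differences, −0.11 and −0.22, had adjusted p of 0.44 and 0.15.

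Psmb3, a structural beta subunit, read 7.26, 7.10, 7.26 and 7.26 in sham, 7.74, 7.46, 7.57 and 7.75 on day 1, 7.25, 7.73, 7.57 and 7.58 on day 3, and 7.05, 6.98, 7.15 and 7.00 on day 7. The day 1 arrays were all above sham, and array 31 lay among the sham values. Psmb3 was higher by 0.41 ± 0.10 (SE, adjusted p = 0.0051) on day 1 and 0.31 ± 0.10 (SE, adjusted p = 0.022) on day 3. Both calls were lost after quantile normalisation, with values of 0.17 and 0.12 and adjusted p of 0.32 and 0.50, and after centring, with adjusted p of 0.22 and 0.30. The day 3 call was also lost in a fit of sham and day 3 only and without sham array 2 or day 3 array 32, 33 or 34, with adjusted p between 0.050 and 0.0685 for the single arrays.

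Psmb6, which carries the caspase-like site, read 9.48, 9.55, 9.52 and 9.51 in sham, 9.45, 9.67, 8.9999 and 9.34 on day 1, 8.51, 9.66, 9.61 and 9.54 on day 3, and 9.34, 9.34, 9.29 and 9.21 on day 7. The sham arrays lay close together, arrays 13 and 31 were the lowest of all, and the day 7 arrays were all slightly below sham. The differences were −0.15 ± 0.21 (SE, adjusted p = 0.58) on day 1, −0.19 ± 0.21 (SE, adjusted p = 0.50) on day 3 and −0.22 ± 0.21 (SE, adjusted p = 0.53) on day 7. Without arrays 31 and 13 the day 7 difference kept its value and was called (adjusted p = 0.037).

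Psmb7, which carries the trypsin-like site, read 12.97, 12.89, 13.10 and 12.91 in sham, 13.15, 13.03, 12.51 and 12.85 on day 1, 12.26, 13.16, 13.22 and 13.08 on day 3, and 12.52, 12.67, 12.83 and 12.56 on day 7. Its pattern over arrays was like that of Psmb6, with arrays 13 and 31 low and the day 7 arrays just below sham. The day 7 difference was −0.32 ± 0.20 (SE, adjusted p = 0.27), and without arrays 31 and 13 it was called (adjusted p = 0.011). On days 1 and 3 it differed from sham by −0.084 and −0.037.

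Psmb1 and Psmb4 complete the beta rings. Psmb1 read 12.31, 12.39, 12.34 and 12.36 in sham, 12.62, 12.74, 11.97 and 12.53 on day 1, 11.70, 12.97, 13.08 and 12.95 on day 3, and 12.48, 12.60, 12.72 and 12.50 on day 7. Array 31 was the lowest of all 16 and the other day 3 arrays the highest, so the day 3 difference of 0.32 ± 0.26 (SE, adjusted p = 0.32) was not called, while without arrays 31 and 13 it was 0.65 and called (adjusted p = 2.3e-05). Psmb4 read 7.97, 7.92, 8.08 and 7.96 in sham, 8.14, 8.17, 7.89 and 8.02 on day 1, 7.65, 8.14, 8.26 and 8.14 on day 3, and 7.87, 7.96, 7.86 and 7.90 on day 7 and was the beta gene nearest to sham on days 1 and 7, with differences of 0.069 and −0.085.

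**Figure D2:**
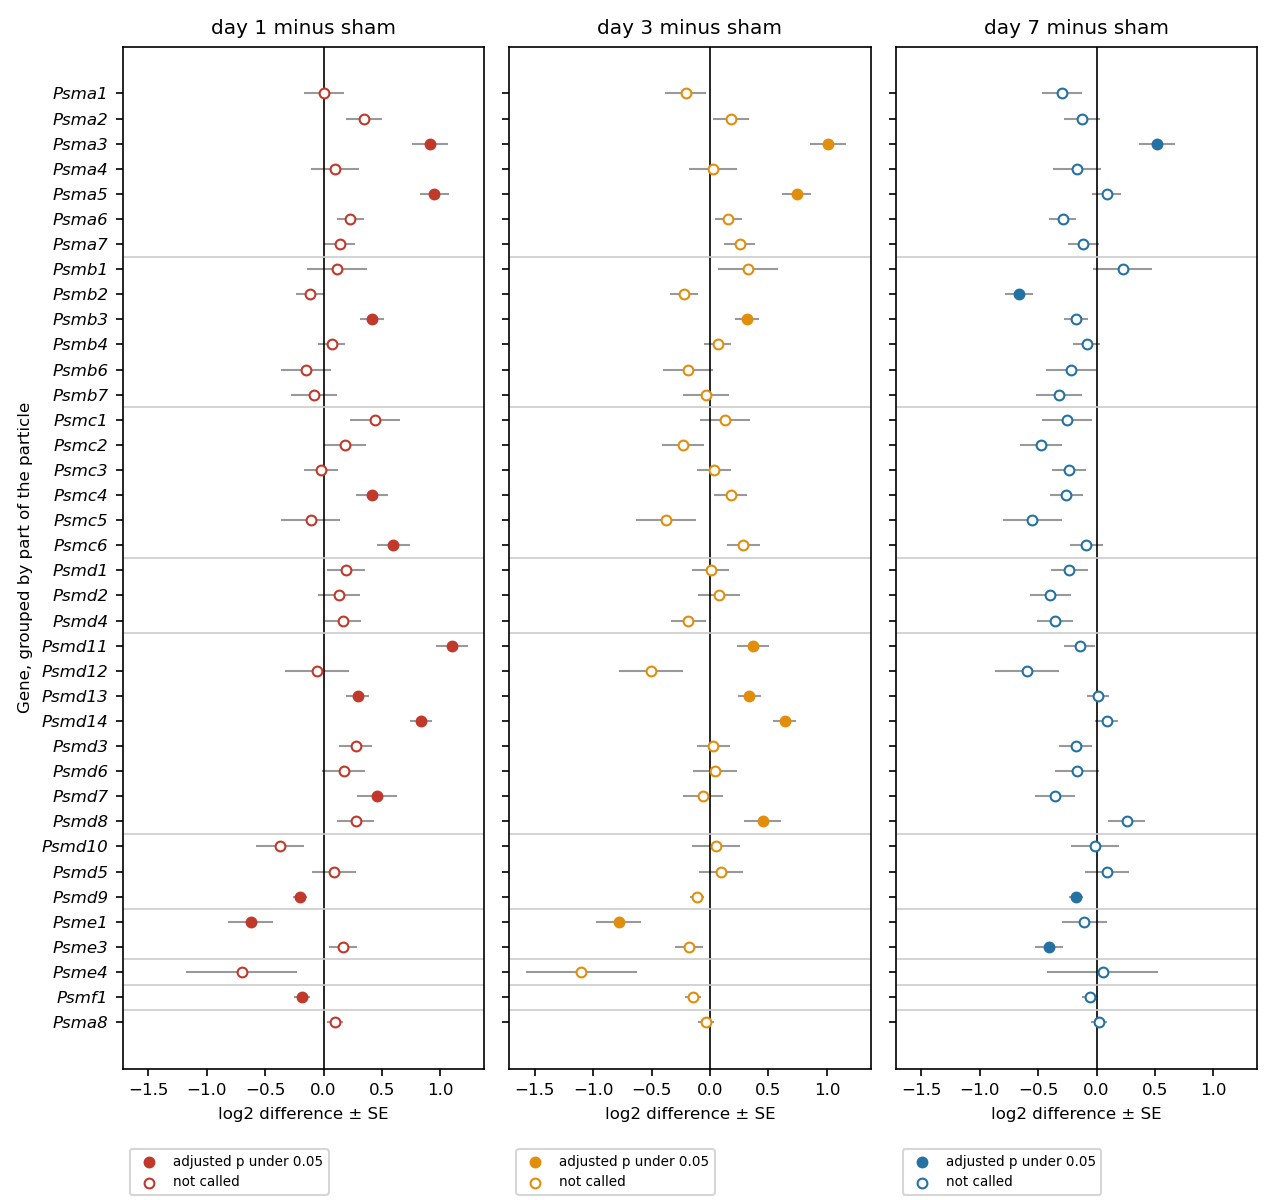
Log2 difference from sham ± SE for the 38 tested proteasome genes on day 1, day 3 and day 7 after infarction, from the model over 16 arrays. Filled points have an adjusted p under 0.05; they are 12 on day 1, 8 on day 3 and 4 on day 7, and Psmd11 on day 1 has the highest difference, 1.10.

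Of the 6 ATPase genes of the regulatory particle 4 lay above sham on day 1, with a median of 0.30 over the 6, and all 6 lay below sham on day 7, with a median of −0.26. Only Psmc6 and Psmc4 passed the test, both on day 1, when 24.9% of all tested genes were called higher. The day 1 median was −0.21 after quantile normalisation, and relative to all tested genes it was 0.24 as deposited and −0.064 after quantile normalisation.

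Psmc6 read 13.29, 13.66, 13.29 and 13.65 in sham, 14.10, 13.98, 13.97 and 14.23 on day 1, 13.57, 13.93, 13.63 and 13.91 on day 3, and 13.20, 13.36, 13.67 and 13.32 on day 7. The day 1 arrays lay above all sham arrays, and the day 3 and day 7 arrays overlapped with sham. The day 1 difference was 0.60 ± 0.14 (SE, adjusted p = 0.0037). After quantile normalisation it was 0.0046 (adjusted p = 0.99) and after centring 0.44 (adjusted p = 0.084), so this call depended on the scaling.

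Psmc4 read 9.28, 9.32, 9.24 and 9.16 in sham, 9.83, 9.68, 9.45 and 9.69 on day 1, 9.05, 9.46, 9.64 and 9.55 on day 3, and 9.21, 9.11, 8.87 and 8.77 on day 7, with all day 1 arrays above sham. The day 1 difference was 0.41 ± 0.14 (SE, adjusted p = 0.027). It was lost after quantile normalisation (adjusted p = 0.70), after centring (adjusted p = 0.34) and without sham array 3 or 4 or day 1 array 11 or 14, with adjusted p between 0.056 and 0.0728.

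Psmc5 had the largest ATPase difference on day 7, and Psmc3 the smallest on days 1 and 3. Psmc5 read 10.06, 10.10, 10.04 and 9.99 in sham, 10.03, 10.18, 9.55 and 9.98 on day 1, 8.65, 9.98, 9.94 and 10.10 on day 3, and 9.56, 9.68, 9.42 and 9.32 on day 7. All day 7 arrays were below all sham arrays, but array 31 lay far below all other arrays, and the day 7 difference of −0.55 ± 0.26 (SE, adjusted p = 0.14) was not called. With arrays 31 and 13 left out the same difference was called (adjusted p = 0.00027). Psmc3 read 9.64, 9.70, 9.67 and 9.75 in sham, 9.71, 9.80, 9.51 and 9.66 on day 1, 9.20, 9.90, 9.98 and 9.82 on day 3, and 9.49, 9.42, 9.54 and 9.36 on day 7 and differed from sham by −0.019 on day 1 and 0.035 on day 3.

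The 3 other base genes were called on no day. All 3 had day 7 groups below sham with no overlap, as did 18.4% of all tested genes. Psmd1 and Psmd2 encode the scaffolds that dock ubiquitin receptors, and Psmd4 encodes such a receptor. Psmd1 read 11.88, 11.96, 12.00 and 11.99 in sham, 12.23, 12.20, 12.03 and 12.13 on day 1, 11.36, 12.10, 12.18 and 12.21 on day 3, and 11.81, 11.80, 11.65 and 11.64 on day 7. Its day 7 difference was −0.23 ± 0.16 (SE, adjusted p = 0.34), and its day 3 difference was 0.0058.

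Psmd2 read 12.11, 11.96, 12.23 and 12.04 in sham, 12.41, 12.36, 11.97 and 12.12 on day 1, 11.56, 12.27, 12.42 and 12.40 on day 3, and 11.84, 11.74, 11.64 and 11.54 on day 7, with a day 7 difference of −0.40 ± 0.18 (SE, adjusted p = 0.13). Psmd4 read 8.40, 8.47, 8.61 and 8.55 in sham, 8.94, 8.83, 8.35 and 8.58 on day 1, 7.85, 8.48, 8.56 and 8.39 on day 3, and 8.21, 8.15, 8.09 and 8.14 on day 7. On day 7 its 4 arrays were the lowest apart from array 31, with a difference of −0.36 ± 0.15 (SE, adjusted p = 0.11). All 3 base genes were called lower on day 7 once arrays 31 and 13 were left out, with adjusted p of 0.015 for Psmd1, 0.0044 for Psmd2 and 0.0040 for Psmd4. In that setting 19.7% of all tested genes were called lower on day 7. Psmd1 was then also called higher on day 1 (0.23, adjusted p = 0.018) and day 3 (0.21, adjusted p = 0.034). So were Psmd4 on day 1 (0.28, adjusted p = 0.019) and Psmd2 on day 3 (0.28, adjusted p = 0.035). Higher calls then made up 32.7% of all tested genes on day 1 and 28.6% on day 3.

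The lid held the largest rise. Of its 8 genes 4 were called higher on day 1, Psmd11, Psmd14, Psmd7 and Psmd13, and 4 on day 3, Psmd14, Psmd8, Psmd11 and Psmd13. None was called on day 7 against sham. The shares of all tested genes called higher were 24.9% on day 1 and 23.5% on day 3. Without arrays 31 and 13, 7 of the 8 were called higher on day 1 and 5 on day 3, against 32.7% and 28.6%. On day 7, 1 was then called higher and 2 lower, against 21.6% and 19.7%.

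Psmd11, the lid subunit that clamps the regulatory particle to the core, read 9.85, 9.85, 10.05 and 9.89 in sham, 11.24, 10.99, 10.84 and 10.96 on day 1, 10.12, 10.19, 10.46 and 10.35 on day 3, and 9.89, 10.05, 9.57 and 9.56 on day 7. The day 1 arrays were far above all others, the day 3 arrays lay just above sham, and the day 7 arrays overlapped with sham. The day 1 difference was 1.10 ± 0.14 (SE, adjusted p = 3.2e-05), called under all 18 alternatives from 0.61 to 1.20. On day 3 it was 0.37 ± 0.14 (SE, adjusted p = 0.040), a call that was lost after quantile normalisation (adjusted p = 0.76), after centring (adjusted p = 0.29), with no filter on low values, in a fit of sham and day 3 only, and without sham array 1, 2 or 4 or day 3 array 33 or 34, with adjusted p between 0.078 and 0.104 for the single arrays. Psmd11 was the 1 proteasome gene called between day 3 and day 1, with a difference of −0.73 ± 0.14 (SE, adjusted p = 0.0045), where 8.11% of all tested genes were called, 5.95% higher and 2.16% lower. Both other scalings and a fit of the 2 groups alone ended that call.

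Psmd14, the deubiquitinase of the lid, read 7.67, 7.57, 7.61 and 7.43 in sham, 8.36, 8.18, 8.57 and 8.51 on day 1, 8.12, 8.17, 8.28 and 8.26 on day 3, and 7.66, 7.73, 7.53 and 7.70 on day 7. All 8 arrays of days 1 and 3 lay above all sham and day 7 arrays, and array 13 was the highest of day 1. The differences were 0.84 ± 0.096 (SE, adjusted p = 1.8e-05) on day 1 and 0.64 ± 0.096 (SE, adjusted p = 0.00012) on day 3. Both were called under all 18 alternatives, from 0.59 to 0.91 and from 0.45 to 0.69. On day 7 the difference was 0.086 (adjusted p = 0.60).

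**Figure D3:**
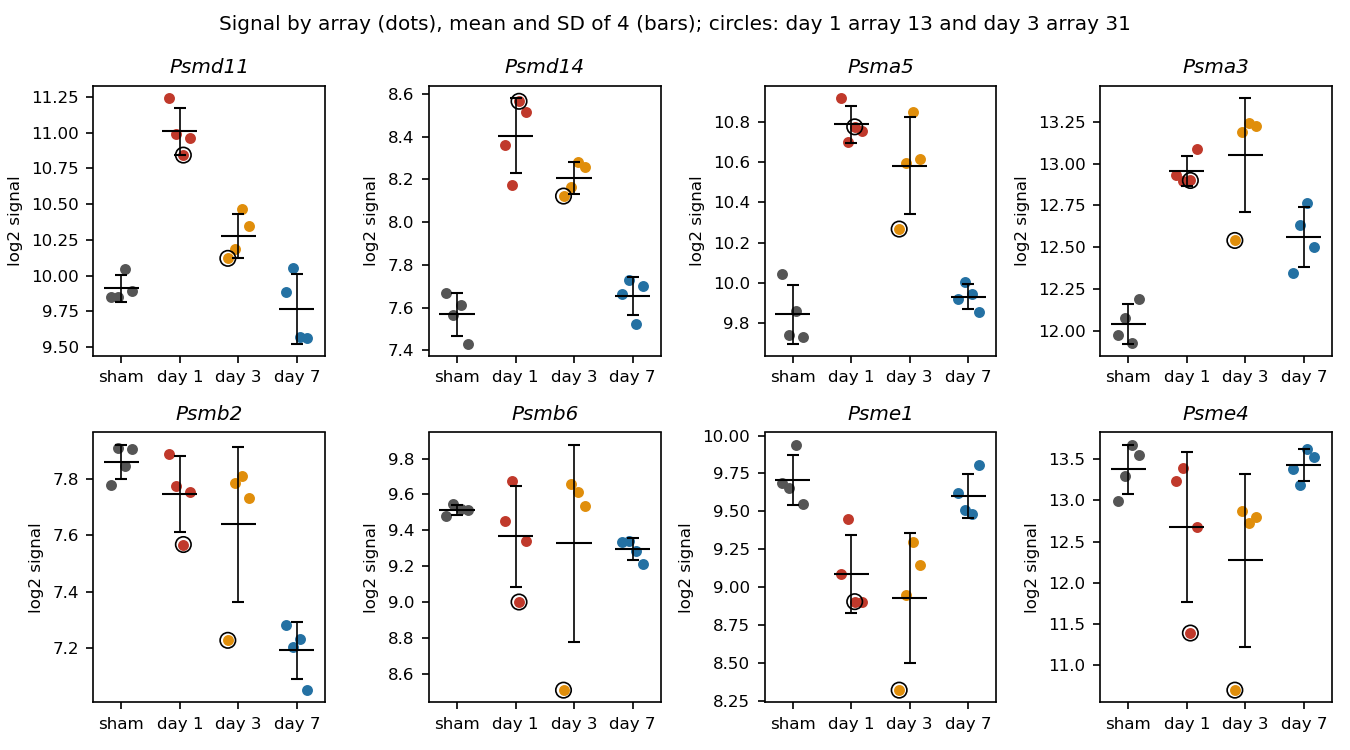
Log2 signal on each array for 8 proteasome genes, by group, with the mean and SD of the 4 arrays; circles mark day 1 array 13 and day 3 array 31. Psmd11 and Psmd14 are above sham on day 1 on all arrays, Psmb2 is low on day 7, and Psmb6, Psme1 and Psme4 have their lowest value on array 31.

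The other called lid genes had smaller differences. Psmd13 read 7.28, 7.31, 7.36 and 7.18 in sham, 7.51, 7.67, 7.53 and 7.58 on day 1, 7.29, 7.71, 7.77 and 7.69 on day 3, and 7.32, 7.22, 7.36 and 7.28 on day 7, with all day 1 arrays above sham and array 31 among the sham values. Its differences were 0.29 ± 0.097 (SE, adjusted p = 0.025) on day 1 and 0.34 ± 0.097 (SE, adjusted p = 0.011) on day 3. Both calls were lost after quantile normalisation and after centring, the day 3 call in a fit of sham and day 3 only, and the day 1 call without sham array 4 or day 1 array 12 or 14 (adjusted p between 0.0511 and 0.0692).

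Psmd7, which pairs with Psmd14 in the particle, read 13.16, 13.12, 13.27 and 13.26 in sham, 13.86, 13.82, 13.39 and 13.57 on day 1, 12.55, 13.27, 13.40 and 13.37 on day 3, and 12.83, 12.88, 12.88 and 12.79 on day 7. It was higher by 0.46 ± 0.17 (SE, adjusted p = 0.040) on day 1, and 10 of 18 alternatives ended the call, among them quantile normalisation, with −0.023, and leaving out any 1 sham array or day 1 array 11, 12 or 14 (adjusted p between 0.0586 and 0.101). Psmd8 read 9.66, 9.69, 9.74 and 9.76 in sham, 10.20, 10.05, 9.78 and 9.94 on day 1, 9.60, 10.38, 10.39 and 10.27 on day 3, and 9.90, 10.01, 9.96 and 10.01 on day 7. It was higher by 0.45 ± 0.16 (SE, adjusted p = 0.031) on day 3, and again 10 of 18 alternatives ended the call, among them both scalings and leaving out any 1 sham array or day 3 array 32, 33 or 34 (adjusted p between 0.0513 and 0.0868). Both calls held without arrays 31 and 13, with adjusted p of 0.00011 for Psmd7 and 2.1e-05 for Psmd8.

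Psmd12 and Psmd3 were not called. Psmd12, a lid scaffold, read 13.23, 13.13, 13.30 and 13.21 in sham, 13.35, 13.41, 12.62 and 13.26 on day 1, 11.66, 13.12, 13.08 and 12.99 on day 3, and 12.69, 12.72, 12.64 and 12.44 on day 7. The day 7 arrays were all below sham, and arrays 31 and 13 were far below the rest of their groups. The day 7 difference was −0.60 ± 0.27 (SE, adjusted p = 0.13), and without arrays 31 and 13 it was called (adjusted p = 5.6e-05). Psmd3 read 6.69, 6.76, 6.87 and 6.79 in sham, 7.18, 7.27, 6.80 and 6.96 on day 1, 6.35, 7.02, 6.96 and 6.89 on day 3, and 6.69, 6.71, 6.41 and 6.60 on day 7 and lay 0.028 from sham on day 3. Without arrays 31 and 13 it was called higher on day 1 (0.36, adjusted p = 0.0041).

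Upstream sequence is shown for 4 genes from this set: Psmd11, Psmd14 and Psma5, which were called higher on days 1 and 3, and Psmd12, a lid gene that was not. The 250 bases before each gene's start are given on the + strand, 5′ to 3′, from RefSeq on the build GRCm38.p6, at chr11:80428365-80428614 for Psmd11, chr2:61711444-61711693 for Psmd14, chr3:108256676-108256925 for Psma5 and chr11:107479278-107479527 for Psmd12. No other gene of the RefSeq table overlaps them. Capitals mark matches on either strand to TGACNNNGC, the core of the element bound by Nfe2l1 and Nfe2l2 with small Maf proteins, or to CCAAT, the box bound by NF-Y.
Psmd11: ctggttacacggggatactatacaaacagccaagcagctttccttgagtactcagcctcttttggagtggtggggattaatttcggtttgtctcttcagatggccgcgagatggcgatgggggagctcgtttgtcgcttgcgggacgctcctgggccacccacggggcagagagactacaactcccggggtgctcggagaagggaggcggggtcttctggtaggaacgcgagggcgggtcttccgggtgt
Psmd14: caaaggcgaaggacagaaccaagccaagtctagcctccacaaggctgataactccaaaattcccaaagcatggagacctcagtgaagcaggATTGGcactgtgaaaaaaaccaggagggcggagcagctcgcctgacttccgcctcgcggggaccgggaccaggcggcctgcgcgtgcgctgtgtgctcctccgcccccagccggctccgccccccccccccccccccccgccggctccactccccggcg
Psma5: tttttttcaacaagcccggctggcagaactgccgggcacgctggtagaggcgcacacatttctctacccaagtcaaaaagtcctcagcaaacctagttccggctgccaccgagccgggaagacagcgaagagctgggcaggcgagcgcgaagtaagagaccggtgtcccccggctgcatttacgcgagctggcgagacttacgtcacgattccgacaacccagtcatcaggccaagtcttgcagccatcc
Psmd12: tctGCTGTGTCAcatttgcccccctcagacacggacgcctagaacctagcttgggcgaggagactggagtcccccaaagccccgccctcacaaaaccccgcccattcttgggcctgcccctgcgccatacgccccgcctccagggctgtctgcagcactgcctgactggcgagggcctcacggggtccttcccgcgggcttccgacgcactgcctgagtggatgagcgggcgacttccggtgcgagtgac
Psmd14 has 1 CCAAT on the − strand, 159 to 155 bases before the start, and Psmd12 has 1 TGACNNNGC on the − strand, 247 to 239 bases before the start. These letters do not occur in the Psmd11 and Psma5 windows.

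In RefSeq windows from 250 bases before to 50 after a start, on both strands, TGACNNNGC was found in 5 of the 32 proteasome genes with an entry, 15.6%, against 14% of 27025 genes. The 5 were Psmb6, Psmc6, Psmd12, Psmd9 and Psme4. CCAAT was found in 13 of 32, 40.6%, against 41.1% of all genes. No match to one pattern overlapped a match to the other in the windows printed above.

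The base chaperones Psmd5, Psmd9 and Psmd10 help to assemble the ATPase ring. Psmd9 was called lower on days 1 and 7 but lay at or below the background level on all 12 infarction arrays and on 1 sham array, so no size can be read from it. It read 4.37, 4.54, 4.59 and 4.55 in sham, 4.27, 4.34, 4.39 and 4.23 on day 1, 4.31, 4.47, 4.39 and 4.43 on day 3, and 4.35, 4.38, 4.33 and 4.29 on day 7. The day 1 call held under all 17 alternatives. The day 7 call was lost under 11 of 17, among them quantile normalisation (adjusted p = 0.34), centring (adjusted p = 0.50) and leaving out sham array 2, 3 or 4 or any 1 day 7 array, with adjusted p between 0.0551 and 0.112. Psmd10, also known as gankyrin, read 8.17, 8.23, 8.49 and 8.24 in sham, 7.90, 8.08, 7.80 and 7.84 on day 1, 7.49, 8.49, 8.59 and 8.74 on day 3, and 8.19, 8.26, 8.37 and 8.25 on day 7. All day 1 arrays were below sham, and the other day 3 arrays were at or above it while array 31 was far below. The day 1 difference was −0.38 ± 0.21 (SE, adjusted p = 0.14), and without arrays 31 and 13 it was called (−0.34, adjusted p = 0.0086). Psmd5 read 8.9966, 9.12, 9.06 and 9.01 in sham, 9.14, 9.30, 8.84 and 9.27 on day 1, 8.42, 9.39, 9.46 and 9.30 on day 3, and 9.18, 9.20, 9.15 and 9.01 on day 7, with differences of 0.090, 0.094 and 0.088 on days 1, 3 and 7, none called. Without arrays 31 and 13 Psmd5 was called higher on day 3 (0.33, adjusted p = 0.0030), and so was Psmd10 (0.33, adjusted p = 0.012).

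Psme1 encodes the alpha subunit of PA28, the interferon-inducible cap that opens the core without ubiquitin. It read 9.69, 9.66, 9.94 and 9.55 in sham, 9.08, 9.45, 8.90 and 8.90 on day 1, 8.32, 8.95, 9.30 and 9.15 on day 3, and 9.62, 9.51, 9.48 and 9.80 on day 7. All 8 arrays of days 1 and 3 were below all 4 sham arrays, and the day 7 arrays overlapped with sham. The differences were −0.62 ± 0.19 (SE, adjusted p = 0.017) on day 1 and −0.78 ± 0.19 (SE, adjusted p = 0.0045) on day 3. The day 3 call held under all 18 alternatives, from −1.02 to −0.55, and was −0.58 without arrays 31 and 13. The day 1 call was lost without sham array 3 or day 1 array 13 or 14, with adjusted p between 0.0506 and 0.0543.

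Psme3, the gene of the nuclear PA28 cap, read 11.19, 11.20, 11.23 and 11.13 in sham, 11.55, 11.43, 11.21 and 11.25 on day 1, 10.78, 11.04, 11.16 and 11.04 on day 3, and 10.91, 10.95, 10.62 and 10.66 on day 7. The day 7 arrays lay below all sham arrays, with a difference of −0.41 ± 0.12 (SE, adjusted p = 0.024). The call was lost after quantile normalisation (adjusted p = 0.14), after centring (adjusted p = 0.27) and without sham array 2 or 3 or day 7 array 73 or 74, with adjusted p between 0.058 and 0.0785. On days 1 and 3 the differences were 0.17 and −0.18.

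Psme4, which encodes the large activator PA200, read 13.00, 13.29, 13.67 and 13.55 in sham, 13.24, 13.39, 11.39 and 12.67 on day 1, 10.70, 12.87, 12.73 and 12.80 on day 3, and 13.38, 13.19, 13.63 and 13.53 on day 7. Arrays 13 and 31 were lower than the rest of their groups by more than 1 log2 unit. They also had the lowest Fbxo32, a muscle gene, at 8.57 and 7.56. The mean of the 13 cardiomyocyte markers was the lowest of day 3 on array 31, at 13.54. On array 13 that mean was 15.13, within the day 1 range of 14.70 to 15.47. The Psme4 differences were −0.70 ± 0.47 (SE, adjusted p = 0.23) on day 1 and −1.10 ± 0.47 (SE, adjusted p = 0.075) on day 3, neither called. Without arrays 31 and 13 they were −0.27 and −0.58, and the day 3 one was called (adjusted p = 0.019). The part of muscle content in these values was not tested.

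Psmf1, the gene of the inhibitor PI31, had a signal close to background and a small range. It read 5.25, 5.24, 5.31 and 5.28 in sham, 5.11, 5.05, 5.14 and 5.04 on day 1, 5.07, 5.14, 5.20 and 5.09 on day 3, and 5.21, 5.32, 4.97 and 5.35 on day 7. The day 1 arrays were all below sham, with a difference of −0.19 ± 0.070 (SE, adjusted p = 0.043). The call was kept under both other scalings, at −0.38 and −0.34, and lost with no filter on low values, with no trend in the variance prior and when any 1 sham or day 1 array was left out, with adjusted p between 0.0568 and 0.0962 for the arrays.

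Psma8 encodes a core subunit known from the testis and Psmb11 one known from the thymus. Of 6 thymus markers 5 were not above background in any group. Psmb11 lay below background on all 16 arrays and was not tested. Psma8 was above it on 3 sham and all 4 day 7 arrays and on no day 1 or day 3 array. Its group means were 4.58 in sham and 4.68, 4.55 and 4.61 on days 1, 3 and 7. The mean was thus highest on day 1, where the background level was 4.69 to 4.87, against 4.47 to 4.53 in sham. Psma8 was called on no day.

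The largest number of calls was between day 7 and day 1. Of 38 tested genes 17 were called lower and 0 higher, 44.7%, while 26.4% of all tested genes were called, 12.7% lower and 13.7% higher. Between the same days all 9 fibroblast markers were called higher, with a median of 4.17, 8 of the 9 neutrophil markers lower, 8 of the 12 macrophage markers higher and 2 lower, and 1 of the 13 cardiomyocyte markers higher. Their part in the result was not tested. The regulatory particle gave 11 of 17 and the core 5 of 13, and the other was Psme3. The median difference was −0.53 in the regulatory particle and −0.30 in the core, against −0.027 over all tested genes. The median of the 38 minus that of all tested genes was −0.38 as deposited, −0.40 without arrays 31 and 13 and −0.19 after quantile normalisation. The number of calls did depend on the scaling, with 3 lower after centring and 3 lower and 1 higher after quantile normalisation. Among all 18418 tested genes, 1166 were called lower after centring, and 1223 lower and 3667 higher after quantile normalisation. The core median minus that of all tested genes was −0.27 as deposited and −0.16 after quantile normalisation.

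**Figure D4:**
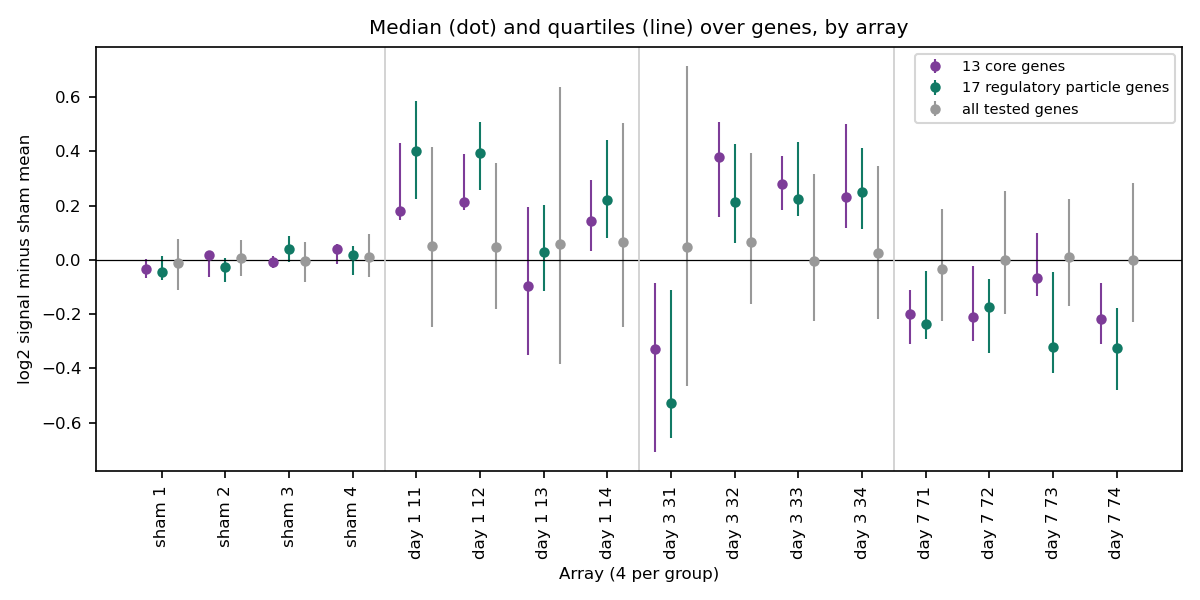
Median (dot) and quartiles (line), over 13 core genes, 17 regulatory particle genes and all 18418 tested genes, of the log2 signal minus the sham mean on each of the 16 arrays. Regulatory particle medians run from 0.029 to 0.40 on day 1 and from −0.33 to −0.17 on day 7; array 31 is at −0.53, below the other day 3 arrays at 0.21 to 0.25.

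The largest of these day 7 to day 1 differences were those of Psmd11, −1.24 ± 0.14 (SE, adjusted p = 2.4e-05), and Psma5, −0.86 ± 0.12 (SE, adjusted p = 0.00022). Psmd7 and Psmd14 followed, with −0.81 ± 0.17 (SE, adjusted p = 0.0032) and −0.75 ± 0.096 (SE, adjusted p = 7.9e-05). Those of Psmd11 and Psmd14 were called under all 18 alternatives. Those of Psma5 and Psmb3 were lost under 1 of 18, which was quantile normalisation for Psma5 and centring for Psmb3. Without day 1 array 11 the count was 11 lower, and without arrays 31 and 13 it was 28 lower and 2 higher, with 25.4% and 18.7% of all tested genes called in those directions.

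Between day 7 and day 3, 7 genes were called lower and 1 higher, together 21.1% against 12.6% of all tested genes, of which 8.57% were lower and 4.06% higher. The 7 were Psma5, Psma6, Psmb2, Psmb3, Psmd11, Psmd13 and Psmd14, and the 1 was Psme1, by 0.68 ± 0.19 (SE, adjusted p = 0.034). Neither scaling left any of the 8 called. The lower count was 26 without array 31, 4 without day 3 array 32 or 33 or day 7 array 72, and 3 without day 3 array 34 or day 7 array 74. Without arrays 31 and 13 it was 31, with 2 higher, where 15.5% of all tested genes were lower and 5.58% higher. The higher call was lost without day 3 array 32 or day 7 array 71, 72 or 74.

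Array by array, the medians of the 30 core and regulatory particle genes followed the group except on the doubted arrays. On day 1 they were 0.30, 0.33 and 0.18 on arrays 11, 12 and 14 and 0.023 on array 13. On day 3 they were 0.26, 0.28 and 0.25 on arrays 32, 33 and 34 and −0.51 on array 31. On day 7 they ran from −0.31 to −0.14, with 21 to 24 of the 30 genes below the sham mean on each array. The median over all tested genes lay between −0.035 and 0.067 on every infarction array.

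Genes that assemble or serve the proteasome were read from lists of neighbours in the pathway. On days 1, 3 and 7, 24.9%, 23.5% and 14.9% of all tested genes were called higher, and 22.2%, 20.2% and 9.92% lower. Without arrays 31 and 13 these shares were 32.7%, 28.6% and 21.6% higher, and 25.1%, 21.2% and 19.7% lower. A list count near these shares says nothing particular about that list. Of 4 tested assembly chaperones of the core, 2 were called lower on day 1, 1 on day 3 and 2 on day 7, and none higher. Psmg2, which acts with Psmg1 in the assembly of the core, had 4 sham values from 10.16 to 10.50 and 12 infarction values from 8.60 to 9.93. It differed from sham by −0.94 ± 0.23 (adjusted p = 0.0049) on day 1, −1.07 ± 0.23 (adjusted p = 0.0019) on day 3 and −1.06 ± 0.23 (adjusted p = 0.0040) on day 7, and was called after both other scalings. Psmg1 was lower, with a difference of −0.51 ± 0.15 (adjusted p = 0.013) on day 1 and −0.47 ± 0.15 (adjusted p = 0.031) on day 7, the second call lost under both scalings. Pomp, which matures the beta rings, was called on no day, with differences of −0.22, −0.30 and −0.23 on days 1, 3 and 7.

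The immunoproteasome exchanges catalytic subunits for inducible ones. Of 6 tested genes of the immunoproteasome, its peptide transporter and its inducers, 0 were called on day 1, 2 on day 3 and 4 on day 7, all higher, or 3 on day 3 and 6 on day 7 without arrays 31 and 13. Psmb8, which replaces Psmb5 in the inducible core, had sham values of 4.68 to 4.83 and day 7 values of 5.46 to 6.26. It was higher by 0.69 ± 0.21 (adjusted p = 0.016) on day 3, a call lost under both other scalings, and by 0.97 ± 0.21 (adjusted p = 0.0040) on day 7, which held under both. Tap1, a subunit of the peptide transporter, was higher by 1.09 ± 0.26 (adjusted p = 0.0074) on day 7. Psmb9 was at or below background on all sham, day 1 and day 3 arrays and above it on 3 of 4 day 7 arrays, at least 0.078 higher on day 7 (adjusted p = 0.013), a call lost under both other scalings, and Psmb10 was not called (0.59 ± 0.31 (adjusted p = 0.19) on day 7).

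Among regulators of proteasome transcription, 11 were tested, with 1 called in each direction on day 1, 2 in each on day 3 and 1 in each on day 7, or 1, 2 and 2 higher and 2, 3 and 2 lower without arrays 31 and 13. Nfe2l1 differed from sham by −0.47 ± 0.25 (adjusted p = 0.13) on day 1 and −0.60 ± 0.25 (adjusted p = 0.063) on day 3, not called, while without arrays 31 and 13 both were called lower (adjusted p = 0.030 and 0.0082), as after quantile normalisation (adjusted p = 0.032 and 0.034). Nfe2l2, the oxidative stress factor, was called on no day. Nfyc, a subunit of NF-Y, was lower, with a difference of −0.90 ± 0.22 (adjusted p = 0.0053) on day 1, −1.01 ± 0.22 (adjusted p = 0.0022) on day 3 and −0.79 ± 0.22 (adjusted p = 0.018) on day 7, the last lost after centring. Ngly1, which processes Nfe2l1, was lower, with a difference of −0.65 ± 0.17 (adjusted p = 0.0063) on day 3.

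Muscle ubiquitin ligases were called in both directions. Of 11 tested, 5 were called lower and 3 higher on day 1, 7 lower and 1 higher on day 3, and 1 lower on day 7, or 7 lower and 1 higher on day 7 without arrays 31 and 13. Asb2 differed from sham by −2.48 ± 0.49 (adjusted p = 0.0012) on day 1 and −2.37 ± 0.49 (adjusted p = 0.0014) on day 3, Fbxo32 by −2.19 ± 0.77 (adjusted p = 0.032) and −2.17 ± 0.77 (adjusted p = 0.034), and Trim63 by −1.07 ± 0.41 (adjusted p = 0.044) and −1.38 ± 0.41 (adjusted p = 0.013). The cardiomyocyte marker means given above were also lower than in sham on those days. The part of muscle content in these differences was not tested.

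Of the 11 shuttles and segregase genes that carry ubiquitin-tagged proteins, 4 were called higher and 2 lower on day 1, 4 lower on day 3 and 3 lower on day 7, and without arrays 31 and 13 also 4 higher on day 3 and 5 lower on day 7. Rad23b was higher by 0.51 ± 0.13 (adjusted p = 0.0073) on day 1, a call lost under both other scalings, and Ubqln2 was lower, with a difference of −0.77 ± 0.25 (adjusted p = 0.024). Of 6 receptors and deubiquitinases bound to the particle, 1 was called higher and 1 lower on day 1, which were Txnl1, by 0.41 ± 0.15 (adjusted p = 0.037) and lost under both scalings, and Ecpas, by −0.76 ± 0.27 (adjusted p = 0.033). Without arrays 31 and 13, 4 of the 6 were called lower on day 7, against 0 with them. Of the ubiquitin genes and activating enzymes 1 was tested, Uba6, which was higher on day 3 by 0.39 ± 0.13 (adjusted p = 0.022), lost under both scalings.

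The COP9 signalosome is a complex built like the proteasome lid. Of its 9 tested genes 3 were called lower on day 1, 2 on day 3 and 2 on day 7, or 4 on day 7 without arrays 31 and 13, and none higher. The shares of all tested genes called lower were 22.2%, 20.2% and 9.92%, or 19.7% on day 7 without those arrays. Cops8 was lower, with a difference of −1.08 ± 0.34 (adjusted p = 0.020) on day 1, and Cops7a with one of −0.59 ± 0.21 (adjusted p = 0.030). Cell division genes were called higher for 5 of 17 on day 1, 17 of 17 on day 3 and 15 of 17 on day 7, and for 10 of 17 on day 1 without arrays 31 and 13.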

How the data were processed

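Total RNA of 16 atrial samples was hybridised as biotin-labelled cRNA to single-colour Affymetrix arrays, 4 per group, per the labels' protocols. The authors deposited log2 signals in a value table of 72688 rows, and the sources used here do not give their scaling. Affymetrix Expression Console is the tool that the submitters' processing notes name, with no version. The labels name an array model of probe sets, but row names are of a transcript-cluster design, so the design is uncertain. Array medians ran from 4.17 to 4.61, and the number of arrays limits the precision.

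Rows with exactly 1 gene symbol in the platform annotation, 30604 of them, gave 30142 genes, each by its row of highest mean. A gene was tested if at least 4 of 16 arrays lay above that array's median, which left 18418. Differences came from limma 3.58.1 in R 4.3.3 (lmFit, contrasts and eBayes with a trend) on 4 group means of all 16 arrays, with Benjamini-Hochberg adjustment per comparison. The fit was tested on simulated data. The 5222 negative control rows gave the background. The members, gene lists and tests were chosen with earlier results of these data known.

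Genes are named in full for Psmb6, Psmb7 and Psmd14, and for the largest and the smallest difference in each part of the particle on each day. Psmc4, Psmd7, Psmd8 and Psme1 lie outside this rule and were chosen, because they were called, after their values were seen. From the neighbouring lists, named genes are those with the 2 largest called differences on the day with most calls, plus Nfe2l1, Nfe2l2, Pomp, Psmb8, Psmb9, Psmb10, Fbxo32 and Trim63. Alternatives were quantile normalisation, centring of arrays, other filters, variance priors and array weights, fits of 2 groups, and omission of each array and of arrays 31 and 13 together. Sequences are from RefSeq on GRCm38.p6. Psma8 was left out of the motif counts with its chromosome.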

Additional observations from a re-analysis of the deposited data

Results flagged for a closer look

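In groups of 4 arrays, 1 array lay far from the others when its gap to the nearest, divided by the group's range, was above the critical value of Dixon's test. Chance gives about 1 in 20 groups. This was so in 21 of the 156 groups of the 39 proteasome genes, and 18 of the 21 involved day 3 array 31, which was below its group for 17 genes and above it for Psmb11, a gene below background. Among the named genes the ratio for array 31 was 0.905 for Psma1, 0.927 for Psma3, 0.906 for Psmb1, 0.868 for Psmb2, 0.898 for Psmb6 and 0.862 for Psmb7 in the core. In the regulatory particle it was 0.891 for Psmc5, 0.866 for Psmd1, 0.831 for Psmd2, 0.906 for Psmd12, 0.835 for Psmd13, 0.848 for Psmd7 and 0.850 for Psmd8. It was 0.842 for the chaperone gene Psmd5 and 0.937 for the activator gene Psme4. The other 3 were sham array 2 below its group for Psmb3, at 0.984, day 1 array 13 below its group for Psma4, at 0.878, and day 7 array 73 above its group for Psma4, at 0.853.

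Differences between days after infarction passed the test for 1 proteasome gene between day 3 and day 1, for 8 between day 7 and day 3 and for 17 between day 7 and day 1.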

How the results depend on the processing

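Of the called values given in the report, 3 changed sign under an alternative, all on day 1 after quantile normalisation, at −0.023 for Psmd7, −0.15 for Txnl1 and −0.0032 for Rad23b. After quantile normalisation the higher calls were 2 on day 1, 1 on day 3, 0 on day 7, 0 for day 7 against day 3 and 1 for day 7 against day 1. The lower calls were 2 on day 3, 1 on day 7, 0 for day 3 against day 1, 0 for day 7 against day 3 and 3 for day 7 against day 1. Among all 18418 tested genes, 2617, 2629 and 1858 were then called higher on days 1, 3 and 7. Lower calls among them were 4655 on day 3 and 1198 on day 7. For day 7 against day 1, 3667 were higher and 1223 lower. The core medians after quantile normalisation were −0.31 on day 1 and −0.20 on day 3, against 0.11 and 0.16 as deposited. The regulatory particle median was −0.084 on day 1, against 0.27 as deposited. The medians of all tested genes were then −0.15 on day 1 and −0.067 on day 3. After centring, the higher calls were 4, 3 and 0 on days 1, 3 and 7 and 0 for day 7 against day 3. The lower calls were 1 on day 7, 0 for day 3 against day 1, 0 for day 7 against day 3 and 3 for day 7 against day 1. Among all tested genes, centring left 3173, 2982 and 2010 called higher on days 1, 3 and 7. It left 546 called lower on day 7 and 1166 lower for day 7 against day 1. The core median after centring was −0.039 on day 1, against −0.088 over all tested genes. With array weights the higher calls were 20, 22 and 2 on days 1, 3 and 7, 7 for day 3 against day 1, 2 for day 7 against day 3 and 3 for day 7 against day 1. The lower calls were then 3 on day 3, 17 on day 7, 4 for day 3 against day 1, 31 for day 7 against day 3 and 28 for day 7 against day 1. Among all 18418 tested genes, array weights called 6659, 5601 and 4274 higher on days 1, 3 and 7, and 4488 and 4005 lower on days 3 and 7. For day 3 against day 1 they called 3930 higher and 3517 lower. For day 7 against day 3 these counts were 1727 and 3425, and for day 7 against day 1, 4138 and 5464.

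In fits of the 2 groups compared, the higher calls were 3 on day 3, 2 on day 7, 0 for day 7 against day 3 and 2 for day 7 against day 1, and the lower calls 15 on day 7, 0 for day 3 against day 1 and 1 for day 7 against day 3. Among all 18418 tested genes, these fits called 3600 higher on day 3, and 3780 higher and 3341 lower on day 7. For day 7 against day 3 they called 252 higher and 604 lower. They called 3055 higher for day 7 against day 1 and 46 lower for day 3 against day 1. With no variance trend 2 proteasome genes were lower for day 3 against day 1, and with no filter on low values 0 were higher for day 7 against day 3. Without arrays 31 and 13 the higher calls were 20, 22 and 3 on days 1, 3 and 7, 4 for day 3 against day 1, 2 for day 7 against day 3 and 2 for day 7 against day 1. The lower calls were then 2 on day 3, 16 on day 7, 5 for day 3 against day 1, 31 for day 7 against day 3 and 28 for day 7 against day 1. The cause of these changes was not tested.

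With 1 array left out at a time, the higher calls ran from 6 to 10 on day 1, 4 to 15 on day 3, 0 to 1 on day 7, 0 to 4 for day 3 against day 1, 0 to 1 for day 7 against day 3 and 0 to 1 for day 7 against day 1. The lower calls ran from 1 to 2 on day 1, 1 to 2 on day 3, 1 to 3 on day 7, 1 to 2 for day 3 against day 1, 3 to 26 for day 7 against day 3 and 11 to 16 for day 7 against day 1. The core medians ran from 0.069 to 0.18, 0.095 to 0.29 and −0.21 to −0.14 on days 1, 3 and 7, and the regulatory particle medians from 0.20 to 0.31, −0.025 to 0.28 and −0.26 to −0.21. No paired analysis was possible because the groups share no replicate numbers. The unstated scaling and the 4 arrays per group limit small differences, and genes near background have no readable size.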
